A study of Mus musculus with 4 samples.

Results

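The genes described here are the Wnt ligands, the receptors that receive them and the proteins that tune or relay the signal, measured in the cochlear duct of mouse embryos in which the transcription factor gene *Tbx2* was deleted from *Sox2*-expressing prosensory cells. The rule takes members by gene name, and it was drawn up, like the role groups below, with earlier results of these data known: the *Wnt*, *Fzd* (Frizzled), *Rspo* (R-spondin), *Sfrp* and *Dkk* families, *Lgr4* to *Lgr6*, *Lrp5* and *Lrp6*, and 11 further genes of the pathway, *Axin2*, *Wif1*, *Lef1*, *Tcf7*, *Tcf7l1*, *Tcf7l2*, *Ctnnb1*, *Nkd1*, *Notum*, *Znrf3* and *Rnf43*. The rule found 57 of the 29924 gene names on the array, with 73 of 39429 probes, and 48 of these genes had a probe bright enough to be tested. Each of 4 two-colour arrays set 1 pool of *Sox2-Tbx2LOF* cochlear ducts, genotype *Sox2*(creERT2);*Tbx2*(fl/fl), against 1 pool of control ducts whose genotype is labelled *Tbx2*(fl/n.d.) and which the methods call cre-negative. The pools thus differed in the creERT2 allele at *Sox2* as well as in the deletion of *Tbx2*. The part of each in a ratio cannot be told apart here. All embryos were of the NMRI strain at E14.5, and all dams had received 4 mg of tamoxifen by mouth as 1 pulse at E12.5, so the controls carried the drug and at least 1 floxed allele as well. The pools were female on arrays 1 and 2 and male on arrays 3 and 4. Within each sex the dyes were exchanged: the mutant pool carried Cy5 on arrays 1 and 3, and Cy3 on the other arrays.

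The creERT2 allele recombines only cells that express *Sox2*, whereas the RNA came from whole ducts with the spiral ganglion removed, so a pool also holds epithelium outside the recombined domain and the tissue that surrounds it. In such bulk RNA, fewer cells of a type and less RNA per cell cannot be told apart. All 8 markers of otic epithelium listed for this check, *Epcam* and *Gata3* among them, were well above background in all 8 pools. Markers of other cells were present too, and 8 of 9 neuronal markers were well above background in all pools. *Neurod1* was too dim to be tested. Of the 8 others, 7 were lower in the mutant at an adjusted p below 0.05 in limma, with mean log2 ratios between -1.75 and -0.36. *Prph* had a mean of -0.10 and an adjusted p of 0.320. The summed signal of the neuronal list was 7824 to 9302 in the mutant pools and 10518 to 14249 in the control pools. *Tbx2* itself gave log2 ratios of -0.25, -0.05, -0.13 and -0.03 on arrays 1 to 4, with a mean of -0.12 and an adjusted p of 0.124 in limma, and *Sox2* had a mean of 0.01. Where the *Tbx2* probe lies relative to the floxed segment is not given in the sources used here, so its level does not check the deletion. The study did so by immunofluorescence: at E14.5, after tamoxifen at E12.5, it reports complete loss of TBX2 protein from recombined cells.

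WNT proteins are secreted, lipid-modified ligands that bring a Frizzled receptor together with LRP5 or LRP6. This stops the breakdown of β-catenin, the product of *Ctnnb1*, which then enters the nucleus and acts with factors of the TCF/LEF family. R-spondins amplify the signal: bound to LGR4, LGR5 or LGR6, they remove the membrane ubiquitin ligases ZNRF3 and RNF43, which otherwise clear Frizzled and LRP6 from the cell surface. In the embryonic cochlea the pathway is known for its roles in prosensory proliferation and hair cell formation, in the polarity of the sensory epithelium and, through *Lgr5*-expressing cells, in the capacity of the young organ of Corti to form new hair cells.

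Array levels are read by a short oligonucleotide, and 7 members passed the test below. Their probes are shown because 2 of these genes were read by a pair of probes that differed in level or in ratio. Each line gives the first 30 of the 60 bases of a probe as the files write it, in lower case with no base singled out, and each position is that of the probe on mouse build mm9. The annotation of exons and untranslated regions on that build was not used here.

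Rspo1, chr4:124686270-124686329: ccgtggtacacgtcacggatgacctgactt
Lgr6, brighter probe, chr1:136880538-136880597: gtctctgttctacatatttggatctgacaa
Lgr6, dimmer probe, chr1:136883782-136883841: tggagaagagctcctgcgactccacccaag
Rspo3, chr10:29172930-29172989: ggatactactttctaacaaggtgtatctag
Rnf43, chr11:87548958-87549017: ctgaaccagacagaaagatgcttgaatcag
Lrp6, brighter probe, chr6:134400440-134400499: caaaggaaacaggaaaagaaaggcatcact
Lrp6, dimmer probe, chr6:134404723-134404782: atcgagcgcacgtcacgggagcctcctcaa
Wnt9a, chr11:59146953-59147012: cctgagtgactgcagagaatgtatttattt
Wnt3, chr11:103679038-103679097: atttaataatagtacatgagcgcattgtaa

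The differences between mutant and control ducts were small in this pathway, and most of those that passed the test lay in its R-spondin arm. Of the 48 tested members 6 rose, *Rspo1*, *Lgr6*, *Rspo3*, *Rnf43*, *Lrp6* and *Wnt9a*, and 1 fell, *Wnt3* (limma, adjusted p below 0.05 over 21042 tested genes). Among all tested genes 2.26% rose and 2.92% fell, and 5.18% passed in either direction. With 1 array left out, 2 members rose and 0 fell without array 1 or 3, 4 rose and 0 fell without array 2, and 4 rose and 1 fell without array 4. The share of all tested genes that passed changed as well. It was 1.95% without array 1, 6.07% without array 2, 2.11% without array 3 and 3.3% without array 4. In the fit to all 4 arrays no member also reached the study's minimum fold change of 1.5. This limit was passed by 0.133% of all tested genes upwards and by 0.309% downwards. *Lgr6* did reach it with other background corrections, given below. The study, with its own normalization and test, names *Lgr6* among its upregulated genes at that limit. From in situ hybridization on sections of these mutants it also reports ectopic *Lgr6* in the inner compartment, the side that forms the inner hair cells. At an unadjusted p below 0.05 there were 19 of 48 members, against 20.2% of all tested genes. Over the 48 members 31 means lay above 0 and 17 below, and the median log2 ratio was 0.04, beside 0.00 over all tested genes. The sign was the same on all 4 arrays for 15 members, where 18.2% of all tested genes had that pattern. The mutant and control signals did not overlap for 9 members, where 4.27% of all tested genes had no overlap.

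**Figure D1:**
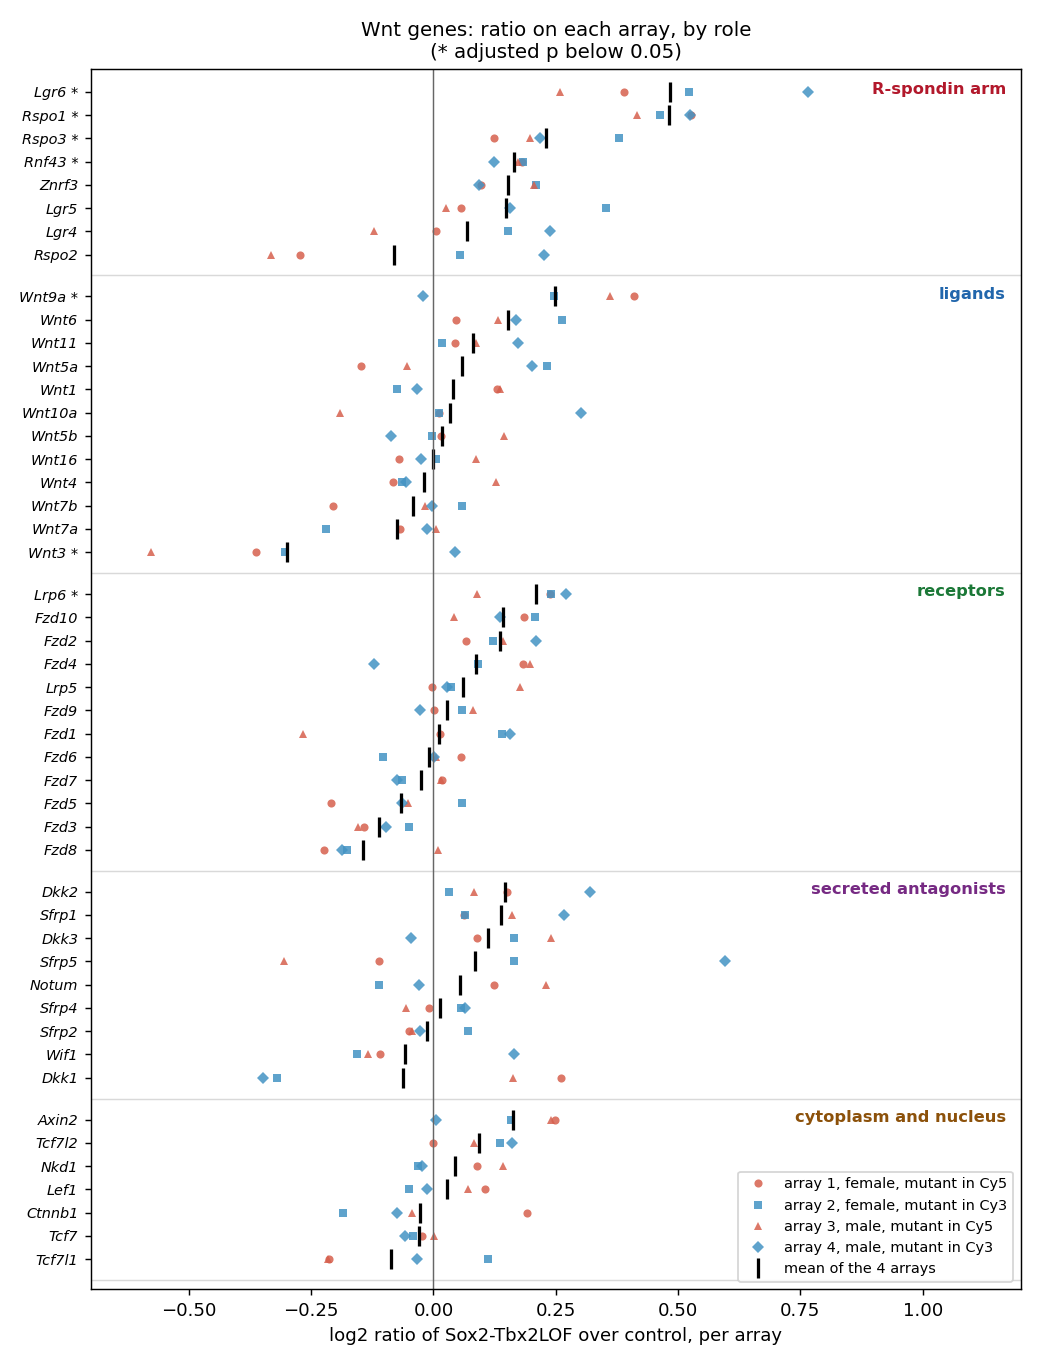
The log2 ratio of *Sox2-Tbx2LOF* over control (x axis) is plotted for each of the 48 tested members (rows, ordered by mean within their role), with 1 point per array, circles and triangles for the arrays with the mutant in Cy5, squares and diamonds for those with the mutant in Cy3, and a black bar for the mean of the 4 arrays. *Lgr6* and *Rspo1* lie to the right of the other members on their means of 0.48, and the asterisks mark the 7 genes with an adjusted p below 0.05.

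The R-spondin arm comprises the 4 R-spondins, their 3 LGR receptors and the ligases ZNRF3 and RNF43, and 8 of these 9 genes were tested. Of these, 4 rose and none fell, 7 had a mean above 0, 6 had the same sign on all 4 arrays and 5 had signals that did not overlap between the genotypes. Among all tested genes 2.26% rose, 18.2% had the same sign on all 4 arrays and 4.27% had no overlap. The median log2 ratio of the 8 genes was 0.16. These counts depended on the processing: 2 of the 4, *Rspo1* and *Lgr6*, passed under all 16 alternatives tried, whereas *Rspo3* passed under 9 and *Rnf43* under 5. With separate channels and the array as a block, 6 genes of the arm rose, and 6.02% of all tested genes passed in either direction. The arm was set as a group with earlier results known, so its counts are a description.

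*Rspo1*, a secreted agonist, had normalized log2 signals of 11.65, 11.70, 11.65 and 11.66 in the mutant pools of arrays 1 to 4 and of 11.12, 11.23, 11.24 and 11.14 in the control pools. Every mutant pool was thus above every control pool, by more than the spread within either genotype. The log2 ratios were 0.53, 0.46, 0.42 and 0.52, with a mean of 0.48 ± 0.053 (SD, 4 arrays), a fold change of 1.4 and an adjusted p of 0.000359 in limma. Without any 1 array the mean stayed between 0.45 and 0.51, and over all alternatives between 0.45 and 0.52.

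*Lgr6*, a receptor for R-spondins known from stem cells of the skin and from supporting cells of the cochlea, had normalized log2 signals of 7.67, 7.86, 7.69 and 7.83 in the mutant pools and of 7.28, 7.34, 7.43 and 7.07 in the control pools. The groups did not overlap. The mean log2 ratio was 0.48 ± 0.216 (SD, 4 arrays), again a fold change of 1.4, with an adjusted p of 0.0014 in limma. The ratio was 0.26 on array 3 and 0.77 on array 4, so its size varied more among the arrays than that of *Rspo1*. The dimmer probe of the gene, listed above, gave a mean log2 ratio of 0.12 ± 0.0421 (SD, 4 arrays), above 0 on all 4 arrays and with signals that did not overlap, and an adjusted p of 0.127 in the limma fit over probes. Both probes lay low on the scale, with mean control signals of 7.28 and 6.90, beside a floor of 6.52 to 6.62, which is the dimmest signal in a pool that still counted as well above background. The size of the *Lgr6* ratio differed between the ways of correcting background. Agilent's processed signals gave 0.89, the values that the authors tabulated 0.87, and a smaller offset, 10 in place of 50, gave 0.62, each past the minimum fold change of 1.5, and the average of both probes gave 0.30.

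*Rspo3*, a further secreted agonist, had signals of 10.73, 10.94, 10.85 and 10.88 in the mutant pools and of 10.60, 10.56, 10.65 and 10.66 in the control pools. The lowest mutant pool was above the highest control pool by less than the spread among the mutant pools. The mean log2 ratio was 0.23 ± 0.108 (SD, 4 arrays) with an adjusted p of 0.0205 in limma, and the call was lost without array 1, 2 or 3 (adjusted p between 0.0555 and 0.142). *Rnf43*, which encodes one of the ligases, had signals of 14.10, 14.03, 14.02 and 14.10 in the mutant pools and of 13.92, 13.85, 13.84 and 13.98 in the control pools, again without overlap. Its log2 ratios of 0.18, 0.18, 0.17 and 0.12 had the smallest SD of the 7 genes that passed, 0.0278, around a mean of 0.17 with an adjusted p of 0.0366 in limma. The call was lost without any 1 of the 4 arrays (adjusted p between 0.0903 and 0.149). The *Rnf43* probe lies 1.89 Mb from that of *Tbx2*, the floxed gene, on chromosome 11; the part of this linkage in the ratio was not tested.

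The other tested genes of the arm did not pass, though *Znrf3* and *Lgr5* did with separate channels and the array as a block. *Znrf3*, the paralogue of *Rnf43*, had mutant signals of 9.17 to 9.33 and control signals of 9.02 to 9.13, and its mean log2 ratio of 0.15 had a 95% confidence interval of 0.06 to 0.24 and an adjusted p of 0.0699. *Lgr5*, a receptor and known target of the pathway that marks prosensory and supporting cells, had ratios of 0.06, 0.35, 0.02 and 0.16, above 0 on all 4 arrays, with an adjusted p of 0.0933. Its other tested probe had a mean log2 ratio of 0.13, close to the 0.15 of the brighter one. *Lgr4* had a mean log2 ratio of 0.07, with the opposite sign on array 3. *Rspo2*, which is known to limit the number of outer hair cell rows, was the only tested gene of the arm with a mean below 0, at -0.08; its ratios of -0.27 and -0.33 with the mutant in Cy5 and of 0.05 and 0.23 with the mutant in Cy3 changed sign with the dye. *Rspo4* was not well above background in any pool.

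**Figure D2:**
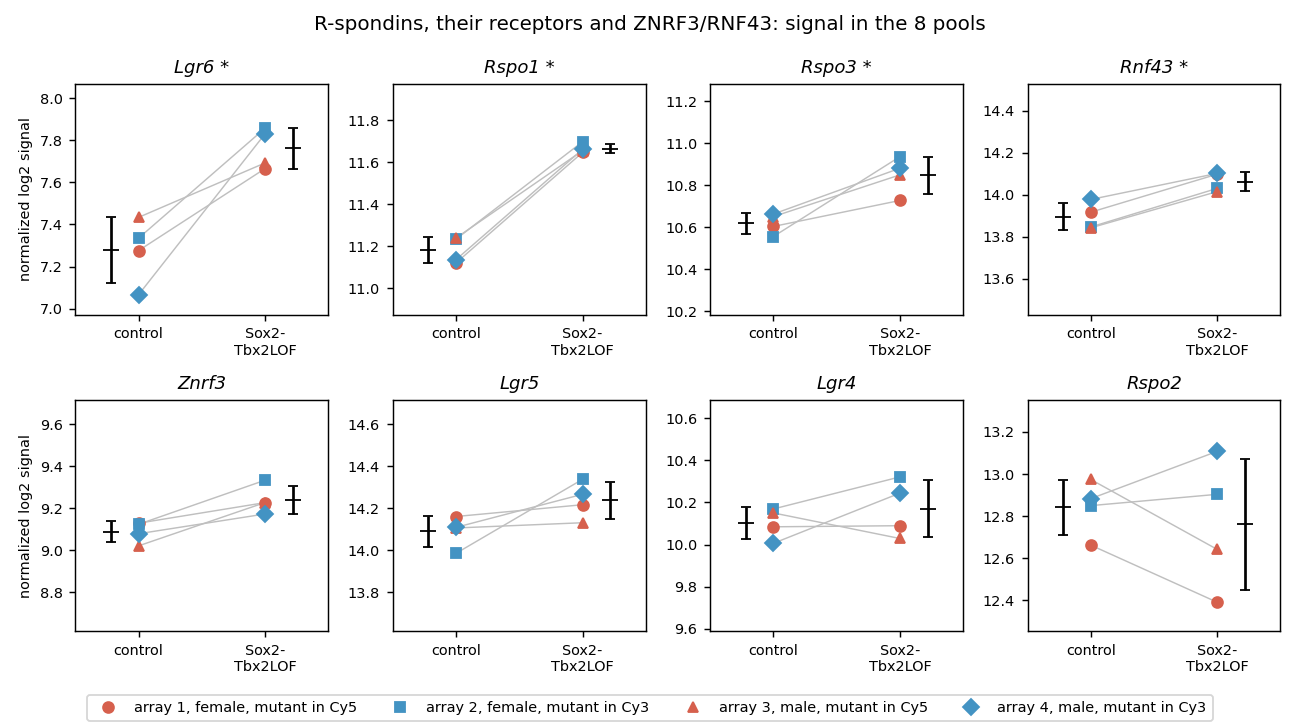
Normalized log2 signals (y axis, 1.1 units in each panel) of the 8 tested genes of the R-spondin arm are plotted for the 4 control and the 4 *Sox2-Tbx2LOF* pools, with grey lines joining the pools of 1 array and black bars for mean ± SD. The 4 lines of *Rspo1* rise nearly in parallel, from controls of 11.12 to 11.24 to mutants of 11.65 to 11.70, and those of *Rspo2* cross.

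The promoters of these 2 genes are shown because they alone passed under all alternatives tried. The 250 bases before each transcription start are given from RefSeq (build GRCm38.p6), written along the strand of its gene and with CpG dinucleotides in capitals. The *Rspo1* stretch is chr4:124986180-124986429, plus strand, and the *Lgr6* stretch is chr1:135105277-135105526, minus strand.

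Rspo1: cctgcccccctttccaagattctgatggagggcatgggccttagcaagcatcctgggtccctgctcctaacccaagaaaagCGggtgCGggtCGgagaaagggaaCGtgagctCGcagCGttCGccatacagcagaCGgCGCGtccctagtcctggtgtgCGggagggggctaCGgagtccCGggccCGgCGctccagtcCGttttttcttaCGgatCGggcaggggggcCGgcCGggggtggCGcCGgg
Lgr6: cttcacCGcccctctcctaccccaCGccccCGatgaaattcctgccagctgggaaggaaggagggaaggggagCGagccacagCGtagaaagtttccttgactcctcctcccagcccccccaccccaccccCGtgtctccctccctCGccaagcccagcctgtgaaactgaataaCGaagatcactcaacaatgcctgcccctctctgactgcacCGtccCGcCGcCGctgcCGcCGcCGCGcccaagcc

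The 2 stretches held 22 and 16 CpG dinucleotides and 66.8% and 65.2% G and C. The 48 stretches of the 38 members with a promoter in the table had a median of 20.5 CpG dinucleotides, beside 6 over all 32851 stretches. Windows of 250 bases before to 50 bases after the start were searched on both strands for the T-box half-site TCACACCT and for the TCF/LEF core CTTTGAT, and no member window held both. The first was in none of the 48 member windows and in 1.28% of all windows. The second was in 2 member windows, those of *Wnt11* and *Wnt5b*, and in 3.73% of all windows. Neither *Rspo1* nor *Lgr6* held either motif in this window.

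Among the ligands, 12 of 19 *Wnt* genes were tested, 1 rose and 1 fell, and the median log2 ratio was 0.03. *Wnt9a* had signals of 12.55, 12.32, 12.40 and 12.23 in the mutant pools and of 12.14, 12.07, 12.04 and 12.25 in the control pools. It was higher on arrays 1 to 3 only, and the groups overlapped because of array 4. Its log2 ratios of 0.41, 0.25, 0.36 and -0.02 had a mean of 0.25 ± 0.194 (SD, 4 arrays) and an adjusted p of 0.0294 in limma. The call was lost without array 1, 2 or 3 (adjusted p between 0.0622 and 0.158).

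*Wnt3* was dim, with signals of 6.82, 6.93, 6.93 and 7.15 in the mutant pools and of 7.18, 7.24, 7.50 and 7.11 in the control pools. It was lower in the mutant on arrays 1 to 3 and not on array 4, whose pools made the groups overlap. The log2 ratios of -0.36, -0.30, -0.58 and 0.04 had a mean of -0.30 ± 0.258 (SD, 4 arrays) and an adjusted p of 0.0366 in limma, and the call was lost without array 1, 2 or 3 (adjusted p between 0.0580 and 0.243). With Agilent's processed signals the *Wnt3* ratio was larger, at -0.71, and did not pass. *Wnt3* moved in the same direction as the neuronal markers given above, and the part of neurons in its ratio was not tested.

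The other 10 tested ligands did not pass. *Wnt6*, which passed with separate channels and the array as a block, came closest: its ratios of 0.05, 0.26, 0.13 and 0.17 gave a mean of 0.15 and an adjusted p of 0.0609, and its signals of 10.92 to 11.11 in the mutant lay just above those of 10.85 to 10.92 in the control. *Wnt4*, *Wnt5a* and *Wnt5b*, whose signals were 12.70 or more in every pool, had means of -0.02, 0.06 and 0.02. *Wnt7a* and *Wnt7b* had means of -0.07 and -0.04. *Wnt1*, *Wnt11* and *Wnt16* had means of 0.04, 0.08 and 0.00. *Wnt10a* was well above background in 2 mutant and 3 control pools, with a mean of 0.03. *Wnt2* and *Wnt8b* were measurable in 1 mutant pool each and were not tested, and *Wnt2b*, *Wnt3a*, *Wnt8a*, *Wnt9b* and *Wnt10b* were not well above background in any pool. No member was measurable in all pools of 1 genotype and in none of the other.

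All 12 receptor genes were tested, and 1, *Lrp6*, rose. LRP6 is the co-receptor that is phosphorylated when WNT binds. Its signals were 14.01, 14.27, 14.14 and 13.97 in the mutant pools and 13.77, 14.02, 14.05 and 13.69 in the control pools. The groups overlapped, since pools of 1 array were bright or dim together, while every ratio was above 0. The ratios of 0.24, 0.24, 0.09 and 0.27 had a mean of 0.21 ± 0.0817 (SD, 4 arrays) and an adjusted p of 0.0243 in limma, and the call was lost without array 1, 3 or 4 (adjusted p between 0.0523 and 0.111). The dimmer *Lrp6* probe had a mean log2 ratio of 0.11 ± 0.102 (SD, 4 arrays), with 0.05 and 0.00 on the female arrays and 0.20 on both male arrays, and an adjusted p of 0.246 in the fit over probes. *Lrp5*, its paralogue, had a mean of 0.06.

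The median over the 12 receptor genes was 0.02. Of the 10 Frizzled genes *Fzd10* and *Fzd2* had means of 0.14 each and were above 0 on all 4 arrays (adjusted p of 0.0855 and 0.0818), and both passed with separate channels and the array as a block. *Fzd3*, a Frizzled known for its part in planar polarity, was below 0 on all 4 arrays, with ratios of -0.14, -0.05, -0.15 and -0.10 and an adjusted p of 0.117. *Fzd8* had the lowest mean of the receptors, -0.14, from ratios of -0.22, -0.18, 0.01 and -0.19 (adjusted p of 0.121). The means of *Fzd1*, *Fzd4*, *Fzd5*, *Fzd6*, *Fzd7* and *Fzd9* were between -0.07 and 0.09.

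Of the 10 secreted antagonists 9 were tested and none passed, and the median log2 ratio was 0.05. In limma 3 of the 9 were at an unadjusted p below 0.05, beside 20.2% of all tested genes. DKK1 and DKK2 act on LRP5 and LRP6, SFRP proteins and WIF1 bind WNT, and NOTUM removes the lipid that WNT needs. *Dkk2* had the highest mean, 0.15, with mutant signals of 11.06 to 11.13 above control signals of 10.81 to 11.03 and an adjusted p of 0.157. It was 0.0743 without array 4, and without array 2 it was 0.219 and passed (adjusted p of 0.0304 in limma). *Sfrp1* was also above 0 on all 4 arrays and without overlap, with a mean of 0.14 and an adjusted p of 0.127. *Dkk1* had the lowest mean, -0.06, from ratios of 0.26 and 0.16 with the mutant in Cy5 and of -0.32 and -0.35 with the mutant in Cy3: it followed the dye. *Sfrp5* did so in the other direction, from -0.31 on array 3 to 0.60 on array 4. *Dkk3*, *Notum*, *Sfrp2*, *Sfrp4* and *Wif1* had means between -0.06 and 0.11. *Dkk4* was not well above background in any pool.

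None of the 7 genes of the cytoplasm and nucleus passed. In limma 2 of the 7 were at an unadjusted p below 0.05, beside 20.2% of all tested genes. *Axin2*, a scaffold of the complex that destroys β-catenin and a widely used reporter of the pathway, had ratios of 0.25, 0.16, 0.24 and 0.01, a mean of 0.16 with a 95% confidence interval of 0.07 to 0.25 and an adjusted p of 0.0568. Its dimmer probe had a mean log2 ratio of 0.08. *Lef1*, *Nkd1* and *Notum*, further known targets, had means of 0.03, 0.04 and 0.05. *Ctnnb1* had a mean of -0.03. The TCF factors *Tcf7*, *Tcf7l1* and *Tcf7l2* had means of -0.03, -0.09 and 0.09. Over all roles, the 95% confidence limits of the 41 members that did not pass lay between -0.25 and 0.26 on the log2 scale, and 12 of these intervals, not adjusted for the number of genes, did not include 0.

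**Figure D3:**
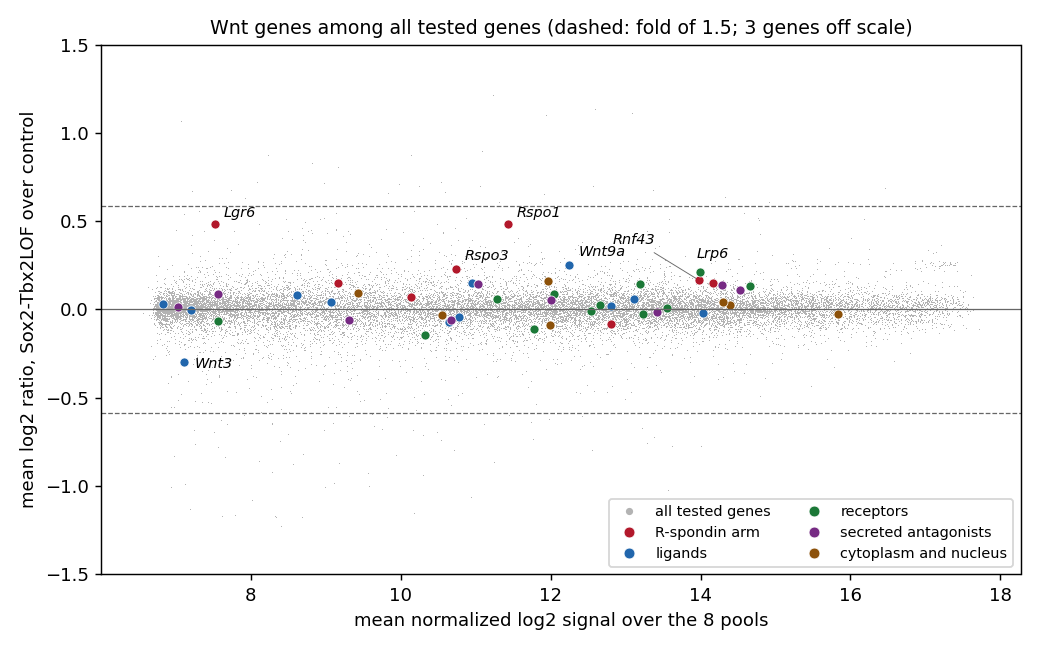
The mean log2 ratio of *Sox2-Tbx2LOF* over control (y axis) is plotted against the mean normalized log2 signal over the 8 pools (x axis), with a grey point for each of the 21042 tested genes, coloured points for the 48 members by role, and dashed lines at a fold of 1.5; 3 genes lie off the scale. *Rspo1* and *Lgr6* are the highest members, below the upper line, *Wnt3* is the lowest, and *Lgr6* and *Wnt3* stand at the dim end.

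For 11 members more than 1 probe was tested, 23 probes in all, and in 8 of these genes all probes had the same sign. In *Lef1*, *Wnt4* and *Fzd7* the signs differed, with means between -0.03 and 0.10. In a fit over all 27963 tested probes, 7 of the 60 tested probes of members passed, 1 for each of the 7 genes named above, beside 3.99% of all tested probes.

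Many ratios changed sign with the dye. Over all tested genes 31.9% had 1 sign on both arrays with the mutant in Cy5 and the other sign on both arrays with the mutant in Cy3, and 11 of the 48 members (22.9%) had that pattern. None of the 7 members that passed was among them. The model holds a dye term, which takes this part out of the error. Without it 2 members rose, *Rspo1* and *Lgr6*, and none fell. Calls were lost over the whole series as well. Of the 21042 tested genes 90 rose and 174 fell without the dye term, beside 476 and 615 with it.

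**Figure D4:**
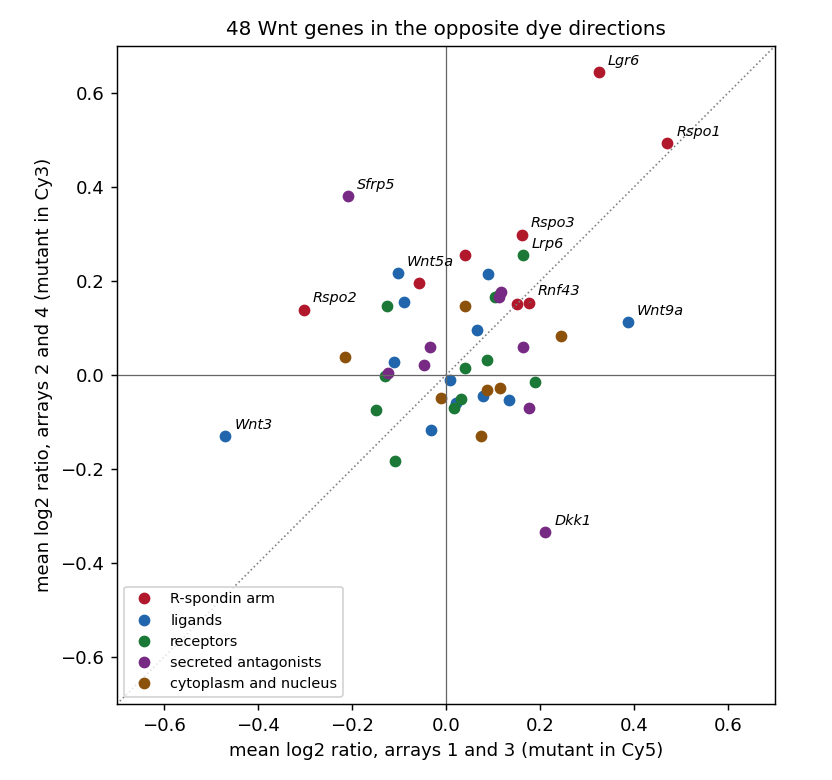
The mean log2 ratio of each of the 48 tested members on the 2 arrays with the mutant in Cy3 (y axis) is plotted against that on the 2 arrays with the mutant in Cy5 (x axis), coloured by role, with a dotted line of equality. *Rspo1* lies near the line at 0.47 and 0.49, *Lgr6* above it, and *Dkk1*, *Sfrp5* and *Rspo2* lie in the quadrants where the sign follows the dye.

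No member passed a test of the difference between female and male arrays. In the limma fit with sex, 0 of 48 members had an adjusted p below 0.05, as 0% of all tested genes, and 0 of 48 had an unadjusted p below 0.05, beside 2.65% of all tested genes. The log2 ratio of *Rspo1* was 0.49 on the female and 0.47 on the male arrays, that of *Lgr6* 0.46 and 0.51, and that of *Wnt9a* 0.33 and 0.17. With 2 arrays of each sex and a dye term, 1 residual degree of freedom among the arrays was left for this comparison.

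A further list of 50 Wnt pathway genes covered secretion, other surface proteins and antagonists, the cytoplasm, the nucleus and known targets. Of these genes 48 were tested, of which 2 rose and 2 fell, beside 2.26% and 2.92% of all tested genes. The median log2 ratio of the list was -0.00. *Dact2*, whose product binds Dishevelled, rose on all 4 arrays, with a mean of 0.22 ± 0.0542 (SD, 4 arrays) and an adjusted p of 0.016 in limma. The *Dact2* mean was 0.39 both with Agilent's processed signals and in the values that the authors tabulated. *Bcl9*, a β-catenin co-activator, rose with a mean of 0.17 and an adjusted p of 0.0484. The 2 that fell were among the 5 tested genes listed as known targets. *Ccnd1*, which encodes cyclin D1, had ratios of -0.24, -0.55, -0.27 and -0.26, a mean of -0.33 and an adjusted p of 0.0103. *Tnfrsf19* had ratios of -0.29, -0.09, -0.47 and 0.02, a mean of -0.21 and an adjusted p of 0.0349. Calls were lost without array 1 or 3 for all 4 genes, and for some also without array 2 or 4 (adjusted p between 0.0666 and 0.234). *Bambi* and *Sost* were not bright enough to be tested.

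Some of the listed cell type markers also differed between the mutant and control pools. Of 8 markers of periotic mesenchyme, the tissue around the epithelium, *Col1a1* rose with a mean of 0.27 and none fell. The median log2 ratio of the 8 was 0.09. The summed signal of the list was 128057 to 148334 in the mutant pools and 108138 to 124184 in the control pools. This sum was mostly the signal of *Col1a2*, with mean log2 signals of 16.37 in the mutant and 16.09 in the control pools. *Col1a2* did not pass (adjusted p of 0.0665 in limma). The sum therefore does not measure the amount of mesenchyme. Among markers of glia and Schwann cell precursors *Fabp7* and *Foxd3* fell, with means of -1.03 and -1.17. Of the 8 markers of otic epithelium *Gata3* rose, with a mean of 0.34, and *Jag1* fell, with a mean of -0.19. None of the markers of melanocytes (6), endothelium (4), macrophages (4) and red blood cells (4) passed. The part of any of these cells in the ratios of the Wnt genes was not tested.

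**Figure D5:**
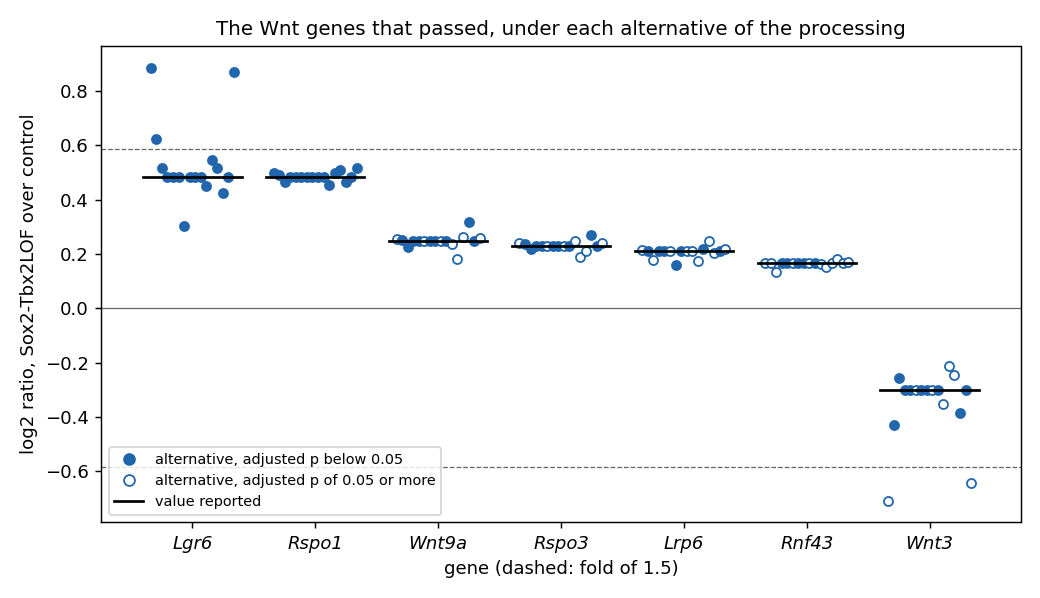
The log2 ratio of *Sox2-Tbx2LOF* over control (y axis) is plotted for the 7 members that passed (x axis), with a black line for the value reported here and 1 point for each of 16 alternatives of the processing, filled where the adjusted p was below 0.05. All points of *Lgr6* and *Rspo1* are filled; *Lgr6* spans 0.30 to 0.89, *Rspo1* 0.45 to 0.52 and *Wnt3* -0.71 to -0.21, and no gene changes sign.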

How the data were processed

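RNA of 8 pools was hybridised on 4 two-colour arrays on 1 slide, read in 1 scan. The authors deposited Agilent Feature Extraction 10.7.3.1 output, whose intensity values are the mean of each spot and the median of its background, not normalized, with Agilent's processed intensity. The value table that the authors deposited holds a score per probe that matches the fold change between mutant and control, with falls written as negative numbers (correlation with the ratios computed here 0.882 to 0.913); its normalization is not given in the sources used here. The header names another array design than the methods, and gene names and mm9 positions are those of the files.

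Each probe lies in 4 spots. Background was corrected with normexp (offset 50), ratios were normalized by loess without control and outlier-flagged spots, and unflagged spots were averaged. The separate signals of the pools were made comparable by Aquantile. Signals of different probes are not on a common scale. On each array, at least 50% of a probe's unflagged spots had to be well above background. A probe was tested where this held in 4 or more of the 8 channel measurements, and each gene was read by its brightest tested probe. Log2 ratios, computed here and not taken from the deposited files, were tested with limma 3.58.1 (R 4.3.3) with a dye term and Benjamini-Hochberg adjustment over 21042 genes. The unpaired SAM test of the study was replaced by limma, with unpaired channels as an alternative. On simulated data for 21042 genes 93 of 100 genes changed by 1.25-fold and 100 of 100 changed by 1.5-fold were recovered, beside 13 false calls. No separate rate is given for dim genes such as *Lgr6* and *Wnt3*, whose ratios changed with the background correction. The number of arrays limits the precision, and p-values cover the spread between these pools, which the methods call independent.

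Members, role groups and lists were chosen with earlier results of these data known. The result of 1 gene in the list of glial markers, and the sum over that list, are not reported here. Genes named by rule were members that passed, the highest and lowest mean of each role, genes with several probes of which 1 passed, the other pathway genes that passed, *Tbx2* and *Sox2*; the remaining members are given so that each is accounted for. Alternatives were Agilent's processed signals, an offset of 10, median centring, no filter or all 8 measurements, no dye term, the mean over probes or each probe, separate channels unpaired or with the array as a block, leaving out each array, sex as a term, and the value table.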

Additional observations from a re-analysis of the deposited data

Results flagged for a closer look

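Among 54 genes examined (the 48 tested members, the 4 other pathway genes that passed, *Tbx2* and *Sox2*), 4 had 1 array whose log2 ratio stood apart from the other 3 by Dixon's criterion for 4 values, which chance meets in about 1 in 20 groups. *Wnt4* was at 0.13 on array 3, where the other arrays were between -0.08 and -0.06. *Wif1* was at 0.16 on array 4, where the others were between -0.16 and -0.11. *Ccnd1* was at -0.55 on array 2, where the others were between -0.27 and -0.24. *Sox2* was at -0.26 on array 3, where the others were between 0.08 and 0.14. None of the 7 members that passed the test had such an array.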

How the results depend on the processing

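Of the 7 members that passed, *Rspo1* and *Lgr6* passed under all 16 alternatives; all 7 kept their direction. With Agilent's processed signals, without the dye term, with unpaired channels and in the value table, 2 members rose and 0 fell. These 2 were of the R-spondin arm. The share of all tested genes that passed was also lower there, between 1.03% and 2.93%, beside 5.18% with the processing reported here. With channels and the array as a block 10 members rose, and 6.02% of all tested genes passed. *Fzd2*, *Fzd10*, *Lgr5*, *Wnt6* and *Znrf3* were added and *Lrp6* was lost. Leaving out 1 array, 2 to 4 members rose, 0 to 1 fell and 2 to 3 of the R-spondin arm rose. Between 1.95% and 6.07% of all tested genes passed in these fits. *Lgr6* passed the fold of 1.5 with processed signals, in the value table and with an offset of 10 (1 member each). Of the other pathway genes 1 rose with processed signals, no filter, an offset of 10, each probe, the mean over probes, median centring, channels with the array as a block and the value table, and 0 without the dye term and with unpaired channels; 1 fell with processed signals, and 0 without the dye term, with unpaired channels and in the value table. Leaving out 1 array, 0 to 3 of them rose and 0 to 2 fell. *Sox2*, at 0.01, was at -0.0171 with median centring and between -0.0726 and 0.0964 without 1 array, below 0 without array 1 or 4 (-0.0046 without array 4). The causes were not tested.

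*Wnt3*, *Lgr6* and *Wnt10a* were read near background, where signal limits the ratio. The difference between the sexes could not be fitted without 1 array, since 3 arrays leave no residual degrees of freedom for 3 terms; it was 0 members under the alternatives run. Mutant and control pools were paired by hybridisation alone.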
